A study of Mus musculus with 3 samples.

Results

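The Arf-Ink4 and Myc loci were taken as 4 genes, Cdkn2a, Cdkn2b, Myc and Mycn, and every listed Utf1 peak that touched one of these gene bodies or the 20 kb on either side was counted as a member. This gave 18 of the 152608 peaks listed for biotin-tagged Utf1 and 0 of the 10506 peaks listed for endogenous Utf1. The peaks come from chromatin immunoprecipitation with sequencing (ChIP-seq), which recovers the DNA fragments bound by a protein, in the mouse embryonic stem cell line KH2. Both precipitations were made from cells in standard serum medium with LIF, grown over irradiated mouse embryonic fibroblasts, and each group is 1 library: Utf1 carrying a biotin tag, and Utf1 without a tag. The sources used here do not say how the tagged protein was expressed. A whole cell extract of the same line was the control and was not analysed here. Both samples are labelled with the Utf1 antibody ab24273, while the protocol uses streptavidin beads for biotin. The rule uses positions and no measured values, although the genes were picked with earlier results of these data known, and no value has a replicate, as each group is a single library.

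Utf1 is a chromatin-bound protein of undifferentiated embryonic cells, and earlier work in mouse embryonic stem cells placed it at promoters that carry both activating and Polycomb marks and connected it with Myc and Arf. Cdkn2a encodes a pair of proteins from separate starts with overlapping reading frames: Arf, which holds back Mdm2 and so stabilises p53, and p16Ink4a, an inhibitor of Cdk4 and Cdk6. Its neighbour Cdkn2b encodes p15Ink4b, an inhibitor of the same kinases. Myc and Mycn encode related transcription factors that drive growth and support self-renewal of these cells, and high Myc activity is known to induce Arf.

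Biotin peaks covered the start of all 4 gene bodies, which at Cdkn2a is the Arf start. The sequence just before these starts and before the Ink4a start is shown where it was found, with each CG dinucleotide in capitals. The sequences are the 250 bases before the start in RefSeq's promoter table for GRCm38.p6, which matched 3 of the 4 genes (Cdkn2a with both of its starts, Cdkn2b and Mycn, all on the minus strand); Myc lies on the plus strand. The coordinates beside the sequences are those of that build. All peak coordinates in the text are mm9, and the builds were not converted into each other.
Cdkn2a Arf start (chr4:89294620-89294869, minus strand): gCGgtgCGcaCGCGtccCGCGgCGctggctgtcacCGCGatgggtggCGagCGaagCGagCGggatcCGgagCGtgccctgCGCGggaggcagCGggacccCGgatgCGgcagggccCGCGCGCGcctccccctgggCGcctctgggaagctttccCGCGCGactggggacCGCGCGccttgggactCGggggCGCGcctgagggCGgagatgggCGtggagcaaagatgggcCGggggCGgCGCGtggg
Cdkn2a Ink4a start (chr4:89282193-89282442, minus strand): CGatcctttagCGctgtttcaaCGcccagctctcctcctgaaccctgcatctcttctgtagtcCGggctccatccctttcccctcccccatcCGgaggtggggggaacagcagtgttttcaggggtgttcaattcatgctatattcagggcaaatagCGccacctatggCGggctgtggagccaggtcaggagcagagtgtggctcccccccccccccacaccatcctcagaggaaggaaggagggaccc
Cdkn2b (chr4:89311033-89311282, minus strand): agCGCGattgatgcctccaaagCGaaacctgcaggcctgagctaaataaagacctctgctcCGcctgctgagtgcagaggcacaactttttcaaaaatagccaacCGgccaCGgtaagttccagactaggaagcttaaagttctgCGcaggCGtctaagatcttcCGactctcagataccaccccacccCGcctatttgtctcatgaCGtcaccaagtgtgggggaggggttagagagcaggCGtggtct
Mycn (chr12:12941837-12942086, minus strand): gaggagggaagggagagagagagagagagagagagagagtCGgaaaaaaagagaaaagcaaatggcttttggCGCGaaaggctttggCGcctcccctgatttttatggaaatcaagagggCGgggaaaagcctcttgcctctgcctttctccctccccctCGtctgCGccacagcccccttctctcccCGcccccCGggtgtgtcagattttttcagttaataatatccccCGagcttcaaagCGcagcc
The Arf start had by far the most CG dinucleotides, 40 in 250 bases, and 98.7% of the 32851 promoters in the table had fewer. The other 3 were nearer to the table's median of 6: 7 before the Ink4a start, 12 before Cdkn2b and 11 before Mycn, with 53.7, 66.5 and 64.4% of promoters having fewer. The GC box GGGCGG, searched on both strands, was found 2 times before the Arf start and 2 times before Mycn, and not in the other 2 sequences; 32.7% of all promoters hold it. The E-box CACGTG, which reads the same on both strands, was in none of the 4, and 6.02% of all promoters hold it. These are counts of letters and not of bound sites.

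Depth is known only as the tags inside listed peaks, whole sequenced tags not scaled for library size: 14128799 in the biotin list, over 212 Mb, and 276084 in the endogenous list, over 7.38 Mb. The endogenous list starts at 13 tags per peak, and 40.4% of its peaks have exactly 13. Intervals on tags are exact Poisson intervals and intervals on shares are exact Clopper-Pearson intervals, both at 95%. The Poisson intervals cover counting error alone: the labels name no molecular identifiers, so tags may not be independent molecules. The intervals on shares of windows treat the windows as a sample and hold the gene's own value fixed. Their width thus reflects the number of windows and not the counting error of the tags, and windows side by side are not independent.

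The start of a gene is here the upstream end of its body, at Cdkn2a the Arf start, and cover of the Ink4a start was not scored. At each of the 4 genes 1 biotin peak lay over the start, and it was the peak with the most tags at Cdkn2a, Myc and Mycn. At Cdkn2b it was exceeded only by the peak over the neighbouring Arf start, which also falls within 20 kb. No biotin peak covered the other end of any of the 4 gene bodies. As background, biotin peaks lie over 11.2% of the positions of chromosome 4, 9.59% of chromosome 15 and 7.46% of chromosome 12. A comparison with the starts of other genes was not made, because no mm9 annotation was used here, so being covered at the start is not shown to be particular to these genes. The rule that defines the loci gives gene ends to the nearest 100 bp, so distances are no finer than that. At Cdkn2a the 2 peaks around the far end of the gene came within 46 and 137 bp of it, so there the absence of a covering peak is within that rounding for 1 of them.

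The Myc peak was the strongest of the 18. It spanned chromosome 15, 61814367 to 61820291, with 890 tags (832 to 950), a width of 5925 bp and a fold enrichment of 17.06. On chromosome 15, 99.8% of the 6729 biotin peaks had fewer tags, 99.97% a lower fold and 99.1% a smaller width. It reached from 2.43 kb before the start to 3.49 kb into the gene, with its summit 252 bp before the start. Its listed strength, 10 times the −log10 of the p-value, was 3100, a value shared by 1488 biotin peaks.

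At Mycn the peak over the start was almost as wide but less enriched. It lay on chromosome 12, 12945422 to 12950655, and had 582 tags (536 to 631), a width of 5234 bp and a fold of 6.91. It was above 99.4% of the 6636 biotin peaks of that chromosome in tags and above 99.0% in width, but above only 82.2% in fold. The summit lay 650 bp before the start, and the peak ran from 1.85 kb before it to 3.38 kb into the gene.

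The Arf start was covered by a narrower peak, on chromosome 4, 88939811 to 88942196, with 304 tags (271 to 340), a width of 2386 bp and a fold of 10.03. On that chromosome 94.6% of the 11604 biotin peaks had fewer tags, 95.2% a lower fold and 87.4% a smaller width. Most of the peak lay outside the gene, from 1.60 kb before the start to 0.789 kb into it, and the summit was 382 bp before the start.

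The Cdkn2b start had the weakest of the 4 peaks, at 88955886 to 88957494 on chromosome 4, with 190 tags (164 to 219), a width of 1609 bp and a fold of 6.04. It was above 86.4% of the peaks of chromosome 4 in tags, 75.0% in fold and 70.6% in width. Its summit lay 315 bp inside the gene, whereas the other 3 summits lay before the start. The Poisson intervals of the 4 tag counts did not overlap. Per kb of peak the values were closer: 150 tags at Myc, 127 at Arf, 118 at Cdkn2b and 111 at Mycn. The order of the 4 peaks by tags was also their order by width, and by fold Arf stood above Mycn.

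**Figure D1:**
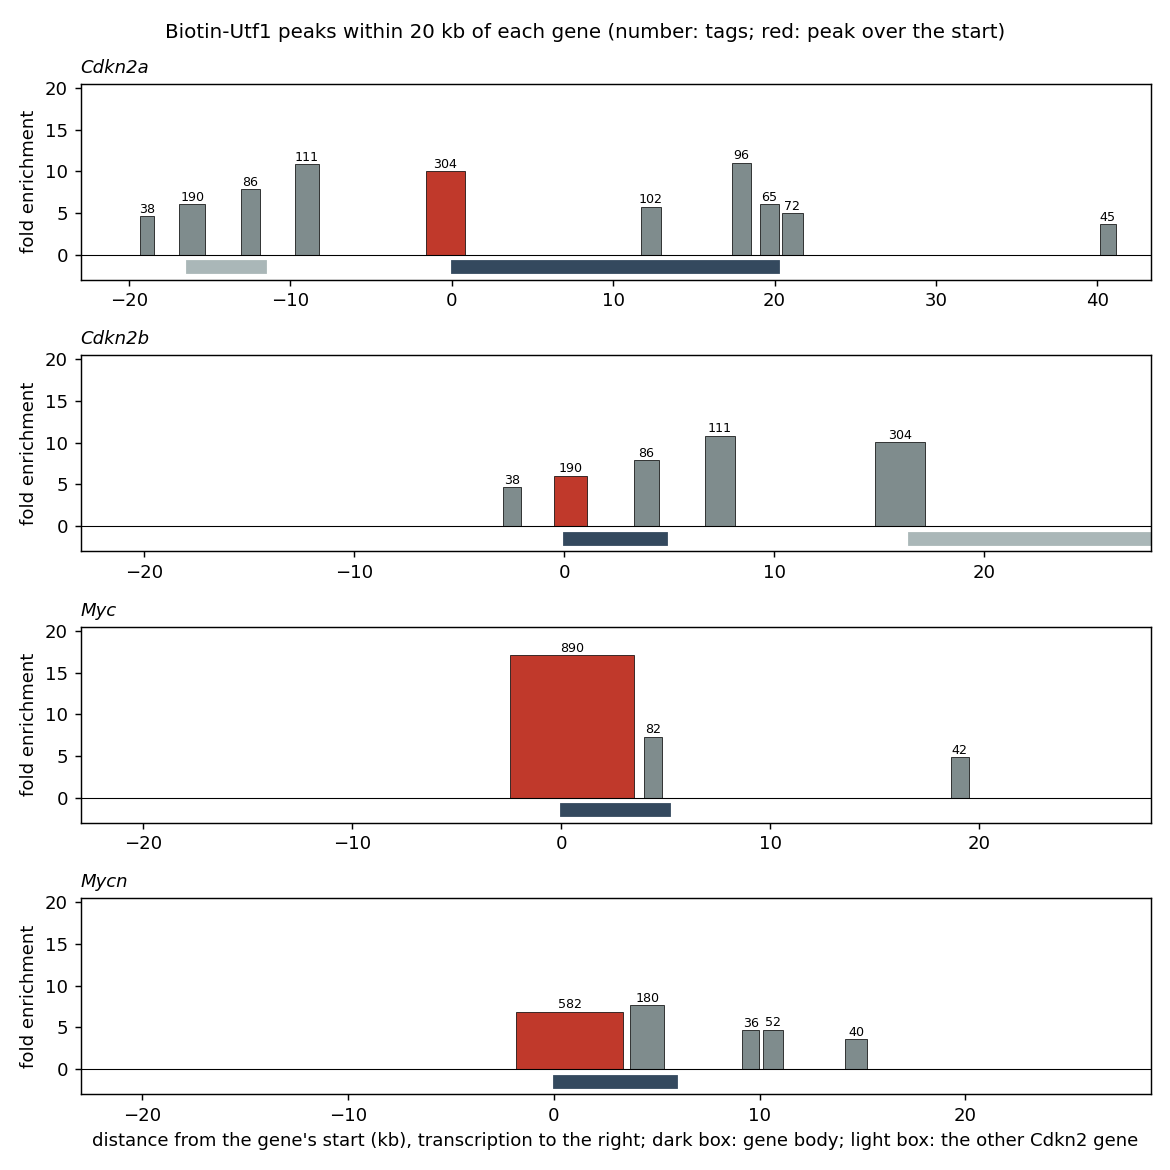
Biotin-Utf1 peaks within 20 kb of each gene. The horizontal axis is the distance from the gene's start in kb, with transcription to the right, bar height is the fold enrichment, bar width is the peak's width and the number above a bar is its tags. Red bars lie over the start, with 304, 190, 890 and 582 tags from top to bottom, and the Cdkn2a panel shows 10 peaks spread over the locus where the Myc and Mycn panels show 3 and 5.

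With flanks of 20 kb, the shared locus of Cdkn2a and Cdkn2b and the 2 Myc genes differed in how their peaks were laid out. The peak over the start held 87.8% of the tags in the Myc window and 65.4% in the Mycn window, but 27.4% in the Cdkn2a window and 26.1% in the Cdkn2b window. Each of the latter windows also holds the start peak of the other gene, and without it the shares were 33.1 and 44.7%. The Cdkn2a window is also the longest, at 60.3 kb. The shares depend on the flank and were not computed with other flanks. With flanks of 50 kb the tags were 1181 at Cdkn2a, 1064 at Cdkn2b, 1155 at Myc and 1426 at Mycn. Each share would thus be lower there, also at Mycn, where the start peak has 582 tags. Joining peaks up to 1 kb apart gave a single stretch over most of each Myc gene, 7244 bp long with 972 tags at Myc and 7232 bp long with 762 tags at Mycn. The stretch covered 92.5% of the Myc body and 89.6% of the Mycn body. On their chromosomes 95.6 and 97.5% of stretches were shorter, and 99.0 and 99.1% had fewer tags. Each was made of 2 peaks, with gaps of 463 bp at Myc and 324 bp at Mycn. At the Cdkn2a and Cdkn2b starts no other peak was within 1 kb, so the stretches there were single peaks of 2386 and 1609 bp. These were longer than 72.4 and 57.3% of the stretches of chromosome 4. The Cdkn2b peak had neighbours only 1.54 kb upstream and 2.20 kb downstream, against 6.66 and 10.9 kb at Cdkn2a. A longer joining distance would thus lengthen the Cdkn2b stretch, and no distance other than 1 kb was run.

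The second peak of the Myc stretch lay towards the far end of the gene, at 61820755 to 61821610, with 82 tags (65.2 to 102) and a fold of 7.30. The only other Myc member was 18.6 to 19.5 kb downstream of the start, with 42 tags (30.3 to 56.8) and a fold of 4.83. Before the start no biotin peak was listed beyond the stretch for 54.7 kb. At Mycn the second peak, 12943424 to 12945097, had 180 tags (155 to 208) and a fold of 7.71, above that of the peak over the start. The remaining 3 Mycn members lay past the end of the gene, 9.14 to 15.2 kb from the start, with 36, 52 and 40 tags and folds of 4.65, 4.72 and 3.62. Upstream of Mycn no biotin peak was listed for 29.1 kb beyond the stretch. Both Myc genes thus had 1 long stretch from just before the start to near the end of the gene. Within 20 kb they had no further peak upstream and small peaks downstream, 1 at Myc and 3 at Mycn. At 20 to 50 kb downstream lay 1 Myc peak of 141 tags and Mycn peaks of 26 to 196 tags.

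On chromosome 4 the windows of the 2 genes overlapped. The Cdkn2a window held 10 and the Cdkn2b window 5, and all 5 of the latter were among the 10, because the gene bodies lie 11.5 kb apart and the windows share 28.5 kb. Inside the Cdkn2a body, past the Arf start, there were 3 peaks. The first, 88927657 to 88928875, had 102 tags (83.2 to 124) and a fold of 5.77 and lay 11.7 to 12.9 kb from the Arf start. The Ink4a transcript begins inside the gene, and in the GRCm38.p6 promoter table its start is 12.4 kb from the Arf start. That spacing was not carried over to mm9, so the peak is given by its distance only. It had 102 tags where the Arf peak had 304, and the intervals did not overlap. The Arf peak is wider, and per kb of peak the values were closer, 83.7 against 127 tags. A lower fold was listed for 72.2% of the chromosome's peaks, against 95.2% for the Arf peak.

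The other 2 peaks of the Cdkn2a body lay near its far end. The peak at 88922059 to 88923223 had the largest fold of the locus, 11.03, with only 96 tags (77.8 to 117) and a width of 1165 bp, so that 97.0% of the peaks of chromosome 4 had a lower fold but 68.5% had fewer tags. Next to it were peaks of 65 and 72 tags on either side of the far end of the gene, with folds of 6.04 and 5.00. Between Cdkn2a and Cdkn2b, 88948853 to 88950312 had 111 tags (91.3 to 134) and a fold of 10.86, with its summit 9.09 kb before the Arf start. The Cdkn2b body held a second peak, 88952468 to 88953686, with 86 tags (68.8 to 106) and a fold of 7.88, also above the fold of 6.04 at its start. The member before the Cdkn2b start was small, with 38 tags and a fold of 4.65. The last member, at the far downstream edge of the Cdkn2a window, had 45 tags and a fold of 3.62. Fold and tags therefore did not rank the peaks of this locus alike: the largest fold belonged to a peak inside the Cdkn2a body, and the most tags to the peak over the Arf start.

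Coverage by part of the locus describes the same peaks in another way and is not separate support for the layouts above. Biotin peaks covered 83.6% of the Myc body and 84.2% of the Mycn body, against 47.6% of the Cdkn2b body and 21.2% of the longer Cdkn2a body. In the upstream 20 kb they covered 12.2% at Myc, 9.28% at Mycn and 6.95% at Cdkn2b, and 33.9% at Cdkn2a, where the upstream flank contains Cdkn2b. In the downstream 20 kb the values were 4.33% at Myc, 14.5% at Mycn, 19.2% at Cdkn2b, whose downstream flank holds the Arf start, and 7.32% at Cdkn2a.

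**Figure D2:**
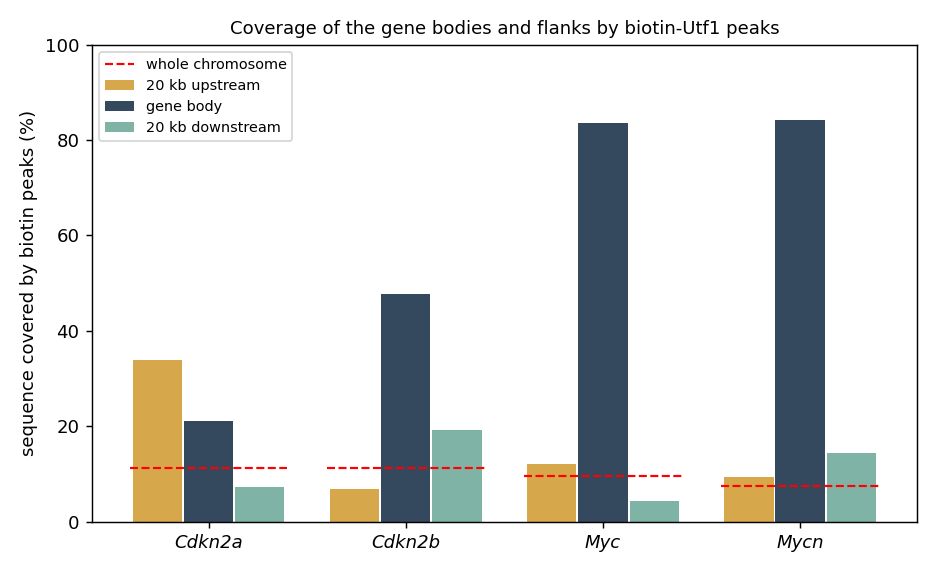
Share of sequence covered by biotin-Utf1 peaks, in percent, for the 20 kb upstream, the gene body and the 20 kb downstream of each gene. Dashed lines are the covered share of the whole chromosome, 11.2% for Cdkn2a and Cdkn2b, 9.59% for Myc and 7.46% for Mycn; the bodies of Myc and Mycn stand at 83.6 and 84.2%.

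As single peaks, without regard to position, the 18 members had a median of 84 tags (36 to 890), a median width of 1192 bp (856 to 5925) and a median fold of 6.04 (3.62 to 17.06), beside 53 tags, 1085 bp and 4.14 over the whole biotin list. Of the 18, 10 had a fold above the list's upper quartile of 6.03, a level passed by 24.7% of all listed peaks, and 2 of these 10 stood at 6.04. The 14 members that did not lie over one of the 4 starts were nearer to the list. Their medians were 68.5 tags (36 to 180), 1103 bp (856 to 1674) and a fold of 5.39 (3.62 to 11.03). These 14 include the peak 11.7 to 12.9 kb from the Arf start, as cover of the Ink4a start was not scored. By median width within a window the order was Cdkn2b with 1460 bp, Cdkn2a with 1219 bp, Mycn with 1074 bp and Myc with 865 bp, beside chromosome medians of 1146 bp on chromosome 4, 1075 bp on chromosome 12 and 1118 bp on chromosome 15. The widest peaks of all were at Myc and Mycn, so the medians of these short lists miss them.

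**Figure D3:**
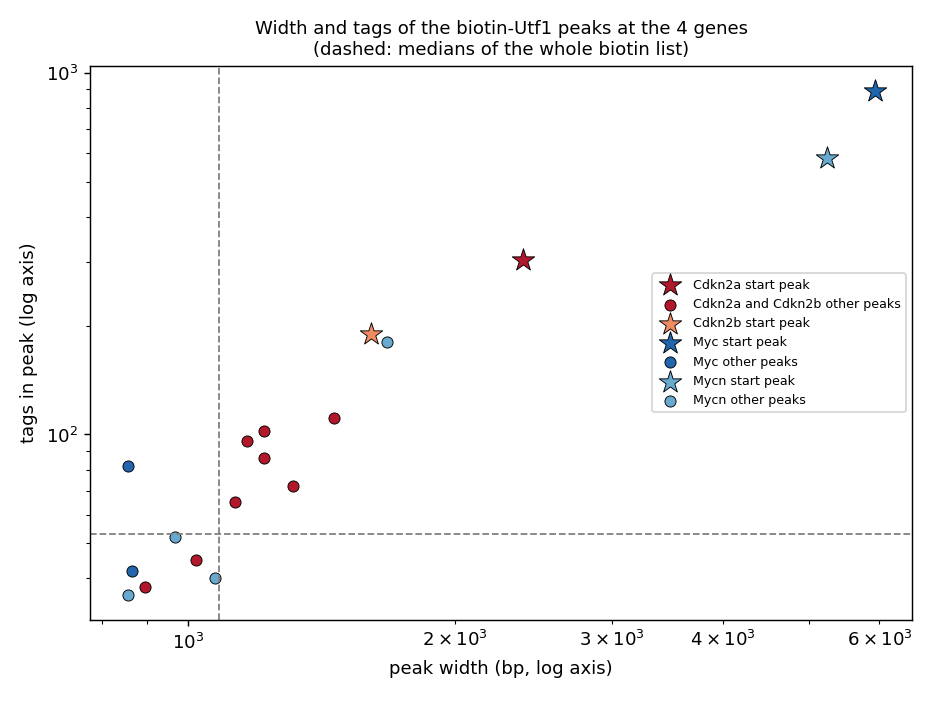
Width in bp against tags of the 18 biotin-Utf1 peaks at the 4 genes, both on log axes. Stars lie over the start of a gene body, at Cdkn2a the Arf start, and circles lie elsewhere. Dashed lines are the medians of the whole list, 1085 bp and 53 tags. The starts of Myc and Mycn sit apart at 5925 and 5234 bp, while the 14 other peaks lie between 856 and 1674 bp.

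Each window, meaning the gene body with 20 kb on either side, was then set beside all windows of the same length laid end to end along its chromosome. All 4 held more biotin tags than most such windows, but none was at the extreme of its chromosome. The 60.3 kb Cdkn2a window had 1109 tags in 10 peaks, beside a median of 156 tags and 2 peaks in 2578 windows, and 85.3% of these had fewer tags (83.9 to 86.7). The 44.9 kb Cdkn2b window had 729 tags in 5 peaks, beside a median of 105 tags and 1 peak in 3462 windows, and 83.8% had fewer tags (82.5 to 85.0). At least 1 biotin peak was found in 77% and 71% of the 2 sets of windows. The tags of the 2 genes are not independent, since 5 peaks counted for both.

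The 45.2 kb Myc window had 1014 tags in 3 peaks, beside a median of 73 tags and 1 peak in 2287 windows, and 90.6% had fewer tags (89.3 to 91.8). The 46.0 kb Mycn window had 890 tags in 5 peaks, beside a median of 76 tags and 1 peak in 2633 windows, and 93.6% had fewer tags (92.6 to 94.5). Here 66.2% and 66.4% of the windows had at least 1 biotin peak. By number of peaks the Myc window stood lower than by tags: 66.6% of windows had fewer peaks and 28.2% had more. For Cdkn2a, Cdkn2b and Mycn, 80.5, 73.5 and 80.4% of windows had fewer peaks.

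In covered sequence the windows stood somewhat lower than in tags. Peaks covered 20.8% of the Cdkn2a window, 16.9% of the Cdkn2b window, 16.9% of the Myc window and 21.3% of the Mycn window, beside window medians of 3.63, 3.60, 2.85 and 2.88%. Less was covered in 81.1% (79.6 to 82.6), 78.5% (77.1 to 79.9), 80.6% (78.9 to 82.2) and 89.9% (88.7 to 91.1) of the same-length windows.

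The place of each gene depended on what it was set beside. Against windows within 5 Mb only, 1 of 165 windows had at least as many tags as Cdkn2a, 2 of 221 as Cdkn2b, 2 of 221 as Myc and 5 of 217 as Mycn. The median window within 5 Mb held 72, 34, 58 and 84 tags. With the gene body alone, set beside windows of its own length, 99.8% of windows had fewer tags than Myc and 99.7% fewer than Mycn, against 90.6% for Cdkn2a and 93.8% for Cdkn2b. This last setting was chosen after seeing the data. The windows include stretches without genes, and their gene content was not analysed here. Those set beside Cdkn2a held no peak of either list from the first base of chromosome 4 to position 2954749, and they were kept. Whether peaks can be called there was not analysed, and such windows raise the shares with fewer tags.

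**Figure D4:**
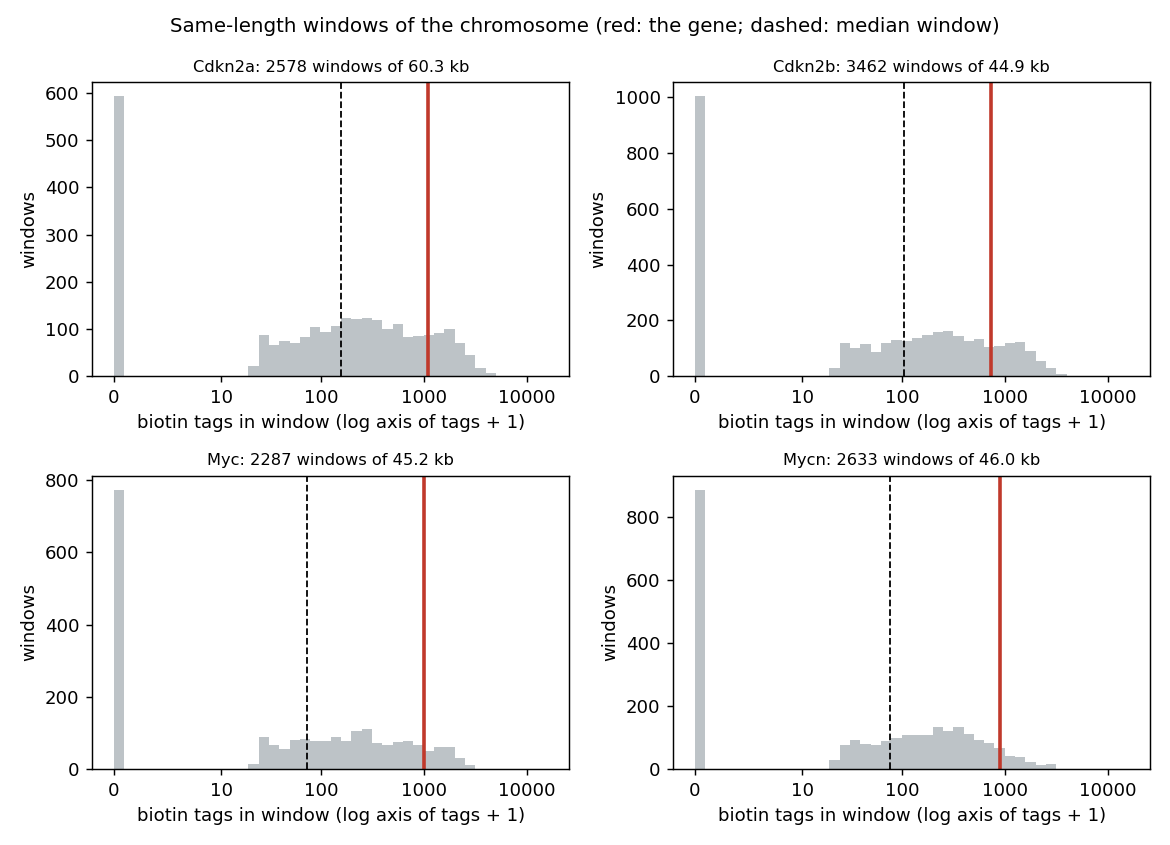
Number of same-length windows of the chromosome by their biotin tags, on a log axis of tags plus 1, for each of the 4 genes. The red line is the gene's window, with 1109, 729, 1014 and 890 tags, the dashed line is the median window, with 156, 105, 73 and 76, and the column at the left holds windows with no peak.

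The endogenous list had no peak within 20 kb of any of the 4 genes. Most windows of these lengths had none either: at least 1 endogenous peak was found in 19.9% of the windows set beside Cdkn2a, 15.4% for Cdkn2b, 13.9% for Myc and 13.9% for Mycn. The count of 0 is thus what most windows of the chromosomes show, and it says nothing particular to these genes. The nearest endogenous peak was 30.3 kb upstream of Myc, at 61785909 to 61786489 on chromosome 15, with 14 tags (7.65 to 23.5) and a fold of 1.57, and the nearest biotin peak was 26.2 kb away from it. For Cdkn2a and Cdkn2b it was the same peak, 268 and 252 kb upstream, with 15 tags and a fold of 2.15. For Mycn it was 483 kb upstream, with 15 tags and a fold of 1.15, and this peak overlapped a biotin peak. The peaks over the 4 starts thus rest on the biotin library alone.

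The limit of 20 kb mattered most for the count at Mycn, where 5 peaks were members and 6 more lay 20 to 50 kb from the gene body; with flanks of 50 kb the tags there were 1426 in place of 890. Cdkn2a and Myc each had 1 further peak at 20 to 50 kb, and Cdkn2b had 4, all members at Cdkn2a. At Mycn the outermost member lay 8.17 kb from the gene body, with 40 tags and a fold of 3.62, and the first peak left out lay at 23.2 kb, with 109 tags and a fold of 9.60. At Cdkn2a these were at 19.9 kb with 45 tags and at 47.5 kb with 72 tags, and at Myc at 13.4 kb with 42 tags and at 46.8 kb with 141 tags. At Cdkn2b the outermost member was the peak over the Arf start, 9.90 kb away, and the first left out was the Cdkn2a peak of 102 tags at 23.2 kb.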

How the data were processed

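Utf1 ChIP-seq of KH2 cells was analysed from 2 deposited peak lists, 1 per library. Per the labels' protocols, chromatin was fixed for 5 min in 1% formaldehyde. The build named is mm9, and BWA 0.5.7 and R 2.15.2 are listed with no role given, per the submitters' processing notes. Which peak caller, control and settings made the lists is not given in the sources used. The deposited lists give, per the file headers, tag counts per peak (unscaled), a score of 10 times the −log10 of a p-value, a fold enrichment (a linear ratio) and a false discovery rate in percent. These are the authors' values and were used only to describe and rank peaks within a list.

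Gene bodies were taken as given in mm9. Peaks overlapping a body or its 20 kb flanks by at least 1 bp were members, with all their tags counted. Windows of the same length were laid end to end from the chromosome's first base to its last listed peak, leaving out those that touch a member window. Covered bases were limited to the window. No test was made, with 1 library per group. All 4 genes are named; named peaks are those over a gene end, the 3 of largest fold, the widest, the one with most tags, and the nearest endogenous peak, and the remaining members are given as well. The members and lists were chosen with earlier results of these data known. The window procedure was run on simulated data with a planted window of high tags, in which no peak crossed a window edge. That run checks the counting only. Other genes of these pathways were not placed, as no mm9 annotation was used. Calculations used Python 3.11.15 with scipy 1.17.1, pandas 2.3.3 and numpy 2.4.6; figures used matplotlib 3.10.9.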

Additional observations from a re-analysis of the deposited data

How the results depend on the processing

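In the order Cdkn2a, Cdkn2b, Myc and Mycn, the share with fewer biotin tags became 85.4, 91.2, 95.7 and 97.1% with flanks of 10 kb, 75.1, 76.3, 81.4 and 90.0% with flanks of 50 kb, 81.0, 77.2, 85.8 and 90.3% against windows with a biotin peak, 99.4, 99.1, 99.1 and 97.7% against windows within 5 Mb, 88.2, 87.3, 92.7 and 95.0% with the stronger 50% of the list by fold, 90.6, 93.8, 99.8 and 99.7% for the gene body alone. The share with less coverage became 81.6, 81.3, 87.3 and 95.7% with flanks of 10 kb, 72.7, 72.4, 70.9 and 86.7% with flanks of 50 kb, 75.5, 69.7, 70.7 and 84.8% against windows with a biotin peak, 99.4, 99.1, 93.2 and 94.0% against windows within 5 Mb, 87.0, 84.7, 87.1 and 93.6% with the stronger 50% of the list by fold, 81.4, 91.4, 98.7 and 99.4% for the gene body alone. Of these, the tags of Cdkn2a and the coverage of Cdkn2a with flanks of 10 kb, and its coverage for the body alone, stayed within the interval of the reported value. Windows laid with another offset, membership by summit and, for tags, counting them in proportion to the overlap kept every share of the 4 genes within its interval. The number of biotin peaks became 6 at Cdkn2a with flanks of 10 kb, and 9 at Cdkn2b and 11 at Mycn with flanks of 50 kb. For the gene body alone it was 4 at Cdkn2a, 2 at Cdkn2b and 2 at Mycn. The number of endogenous peaks became 1 at Myc with flanks of 50 kb and was 0 at all 4 genes under every other setting run. In all, 18 results had 106 alternative values: 52 stayed within the interval of the reported share or within 1.5 times the count, and 54 moved; the cause was not tested, apart from the shorter or longer windows and the fewer peaks or windows that the settings themselves make. The gene body alone and the shares of the start peaks without the other Cdkn2 start were added after seeing the data. No paired analysis was possible because each group has 1 library, and for the same reason no replicate could be left out. Unknown library depth limits any comparison between the lists.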

Other observations

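Peaks 20 to 50 kb from the gene bodies were outside the windows of 20 kb flanks. Mycn had 6 of them, and 4 lay downstream of the gene. One of these, on chromosome 12 at 12910760 to 12912804, had 196 tags and a fold of 11.35, above every Mycn member in fold, and 97.2% of the peaks of the chromosome had a lower fold. Another downstream peak, at 12918244 to 12919567, had 109 tags and a fold of 9.60. The 2 upstream peaks, 31.0 and 44.5 kb from the gene body, had 34 and 97 tags.

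Myc had 1 such peak, on chromosome 15 at 61868830 to 61870337, 46.8 kb downstream of the gene body, with 141 tags and a fold of 8.65. Which gene lies nearest to this peak was not analysed, as no mm9 annotation was used here. Cdkn2a had 1 such peak, 47.5 kb downstream, with 72 tags and a fold of 5.38. For Cdkn2b there were 4, all of them members at Cdkn2a and described there. These peaks were named after their values were seen.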
